A study of Bombyx mori with 3 samples.

Results

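The 30K lipoproteins of the silkworm Bombyx mori were followed in larval fat body after feeding with phoxim. Their members were the array spots whose gene description, or sequence description where that was empty, names a 30K protein or 30K lipoprotein, a 30 kDa lipoprotein, PBMHP or microvitellogenin, with NADH and protease entries left out. This rule took 22 of 23229 gene probes and used no measured value. Of these, 17 were bright enough to be tested and 5 were not.

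Larvae of strain p50, of both sexes, were given the organophosphate insecticide phoxim from day 3 of the fifth instar, on mulberry leaves soaked in a solution of 4 µg/mL. Control larvae received leaves treated with water. Fat bodies were dissected after 24 h, with 30 larvae in each experiment, and the RNA of a treated and a control sample with the same replicate number was hybridised together on each of 3 two-colour arrays. The question was which fat body transcripts differ after exposure. The labels call the replicates biological, but the RNA comes from pools of larvae, and in whole tissue fewer cells of a type and less RNA per cell cannot be told apart.

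The 30K proteins are small lipoproteins that the fat body secretes into the hemolymph late in larval life. They accumulate there as major plasma proteins, are taken up again later and enter the developing egg as yolk, and in cultured cells some of them hold back cell death. In the silkworm the classical members are named after cDNA clones C-6, C-12, C-19, C-21 and C-23. Microvitellogenin is a related yolk protein of the tobacco hornworm, and the spots described by it have their closest named match in that species.

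Of the 22 spots, 15 carried a silkworm 30K description and 7 a microvitellogenin description. Among the former, 6 were described as 19G1, 4 as 21G1, 2 as PBMHP-12, 2 as PBMHP-6 and 1 as PBMHPC-19. Gene IDs were given for only 3 spots, with 4 IDs in all, and each of the 4 matched a RefSeq gene (assembly ASM3026992v2, used for names and order only). Probe sw22736 carried the ID of LP3, which has C-19 and 19G1 among its synonyms. Probe sw06038 carried that of Lp-c6, and sw19103 those of both Lp-c23 and Lp-c12, so its signal cannot be divided between these genes. The 4 genes lay on 1 chromosome within a run of 10 annotated genes. The gene between LP3 and Lp-c6 was LP4, a synonym of which is 21G1, but none of the 21G1 spots carried its ID. Several spots shared a source. Probes sw22699 and sw22776 shared a gene model and 183 of their listed expressed sequence tags (189 and 187), sw22736 and sw17422 shared a model, and so did sw20980 and sw22162. Related copies may also read each other's transcripts, so the 22 spots are not 22 separate genes. By shared gene models they formed 17 groups.

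All ratios below are phoxim over control on the log2 scale, computed from the deposited intensities after normalization within each array. By the labels, phoxim RNA carried the dye Cy5 throughout. The file header of replicate 2 instead gives Cy5 to the control RNA, and this header was followed. In that order the correlation between replicates 2 and 3 was 0.27 over the 6154 tested probes of the array, and in the labelled order -0.27 (a description across probes that share the array surface and the dyes). In the labelled order every replicate 2 ratio below changes sign and its phoxim and control intensities change places, so each statement about which RNA was higher on replicate 2, or on every array, holds for the header's order. For the tested family probes, the authors' deposited ratios of replicate 2 mostly followed the header's order. For sw09130, sw22574 and sw19541 they were 1.7964, 0.5719 and 0.4439, where the header's order gave log2 ratios of 0.60, -1.09 and -1.35. Probes sw17422 and sw22776 went the other way, with deposited ratios above 1 and log2 ratios below 0. Whether the header or the labels are right was not tested. The correlation of replicates 1 and 2 was near 0 in either order (0.03 and -0.03). Across the 17 tested family probes the header's order gave -0.05 for replicates 1 and 2 and 0.12 for replicates 2 and 3. Muscle markers had positive median ratios on each array. The 28 tested spots of 55 in a list of muscle markers had median ratios of 2.28, 0.18 and 0.52 in replicates 1, 2 and 3. Summed over all 55 spots, the intensities ran from 120379 to 187575 in phoxim and from 37750 to 94802 in control RNA. Of the list, 10 spots were never above background. Fat body markers were present in both RNAs, with 14 of 22 spots tested, a median of 0.06 and array medians of 0.37, -0.44 and -0.12. The arylphorin probe sw06703 was saturated on all 3 arrays in both RNAs. The part of muscle RNA in the results below was not tested.

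No 30K probe differed between phoxim and control RNA past the threshold. By limma's test, 0 of the 17 tested probes had a Benjamini-Hochberg adjusted p under 0.05, where the share called among all 6154 tested probes was 0%. The adjusted p-values of the family lay between 0.39 and 0.99. Before adjustment, 2 probes (sw09130 and sw12287) had p under 0.05 with the higher level in phoxim RNA (background 6.13%) and 0 with the lower (background 4.81%). The mean ratio was above 0 for 14 of the 17 probes (background 50.3%) and below 0 for 3 (background 49.7%), and it ranged from -0.48 to 1.08. The median was 0.32, against 0.00 for all tested probes. Of the 17, 16 had both RNAs above background on every array, so the filter on dim spots did not select these 16 through 1 RNA. The remaining probe, sw12287, was kept on replicate 1 through phoxim RNA only. Its control value there (132 in Cy3, where the cut was 188) was not above background. With both channels required on every array, sw12287 dropped out and 1 family probe had an unadjusted p under 0.05.

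The family median was positive on replicates 1 and 3 and negative on replicate 2. In replicate 1 all 17 tested probes had a ratio above 0 (background 57%), with a median of 1.00. In replicate 2 it was 7 of 17 (background 45.1%) with a median of -0.42, and in replicate 3 it was 11 of 17 (background 50%) with a median of 0.45. Replicate 1 is also the array with the highest median for muscle markers, fat body markers and all tested probes (0.13, -0.06 and 0.00 on replicates 1, 2 and 3). Some other lists, such as the storage proteins, had their highest median on another array. Without replicate 1 the family median was -0.05 (all tested probes -0.02), with 8 of 17 probes above 0 (background 48.6%) and 9 below. Without replicate 2 it was 0.77, and without replicate 3 it was 0.29. The median SD of a probe between arrays was 0.75 over the 17 and 0.49 over all tested probes.

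**Figure D1:**
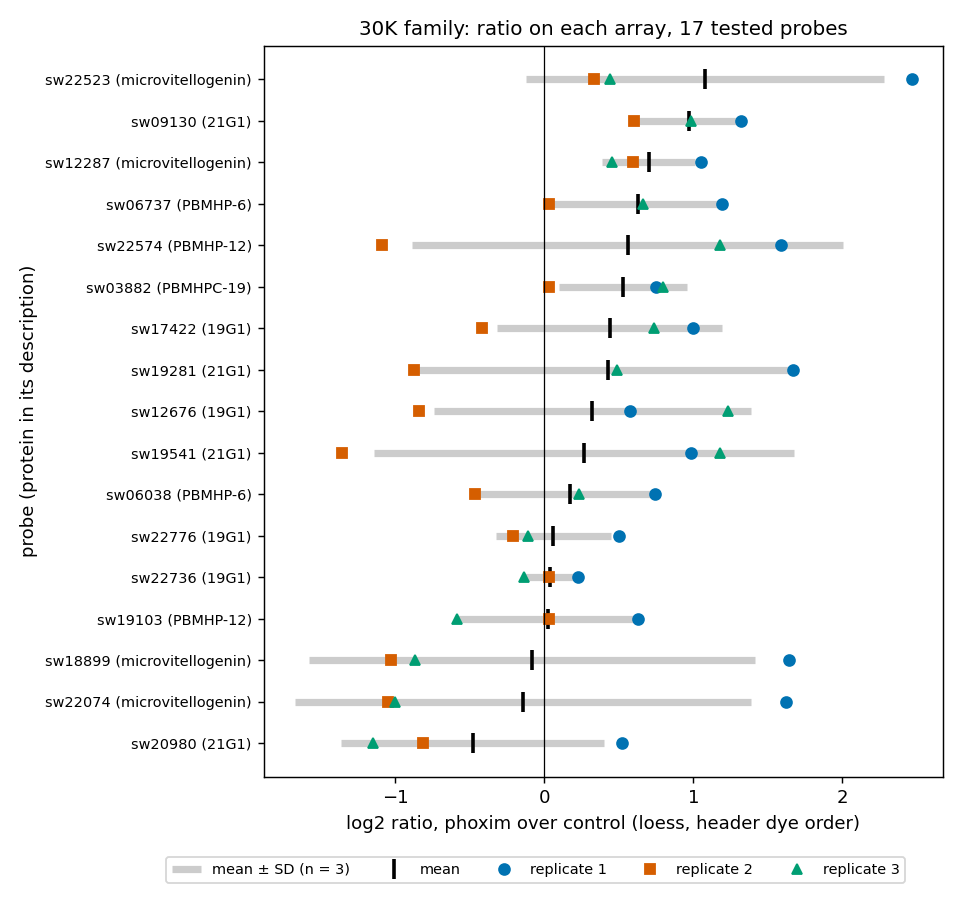
Log2 ratios of phoxim over control (x axis) for the 17 tested 30K probes (y axis, with the protein named in the description), 1 symbol per array, with the mean as a tick and mean ± SD (n = 3) as a grey bar. In replicate 1 all 17 symbols lie above 0, in replicate 2 there are 7 and in replicate 3 there are 11.

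The normalized ratios of the family were also read by dye, as Cy5 over Cy3. They were above 0 for 17, 10 and 11 of the 17 probes in replicates 1, 2 and 3 (background 57% and 50% in replicates 1 and 3). In replicate 2, where phoxim RNA carried Cy3, they were below 0 for 7 of 17 (background 45.1%), near the share of all probes. For 6 probes they were above 0 on every array (background 15.4%). These are signs of normalized ratios, and the raw intensities of a spot can go the other way. In a fit with a term for the dye, that term was above 0 for 16 of 17 probes, with a median of 0.48 and a range from -0.0042 to 1.24. The share of all tested probes with a dye term above 0 is not given here, so this count has no background beside it. The phoxim term then had a median of 0.04 (all tested probes -0.01). It was above 0 for 12 of 17 probes (background 49%) and below 0 for 5, and none passed. With replicate 2 in the labelled order the mean of each of the 17 probes was above 0 (background 54%), from 0.0046 to 1.29 with a median of 0.57, and the smallest adjusted p of the family was 0.88. With 1 array in the other order, a dye effect and replicate 2's own difference cannot be told apart.

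**Figure D2:**
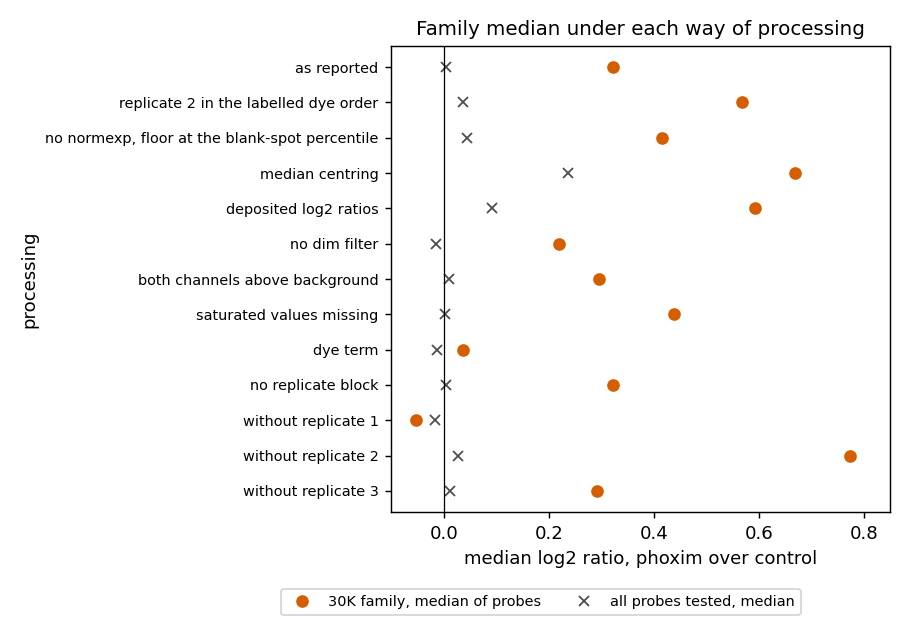
Median log2 ratio (x axis) of the 30K probes (circles) and of all tested probes (crosses) under each way of processing (y axis). The family median was 0.32 as reported, 0.04 with a dye term and -0.05 without replicate 1, and it was highest without replicate 2, at 0.77.

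The brightest spots of the family had reached the scanner's ceiling. A spot was taken as saturated at 99% or more of the highest intensity of its channel. Of the 17 probes, 4 were saturated in Cy5 on all 3 arrays (background 0.146%), in phoxim RNA on replicates 1 and 3 and in control RNA on replicate 2. They were sw22736 (LP3), sw19103 (Lp-c23 and Lp-c12), sw22776 (19G1) and sw19281 (21G1). Cy3 was saturated only for sw22736 and sw19103, on replicate 2. A saturated channel understates its RNA, so the ratios of these probes do not show the size of a difference.

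LP3 encodes one of the main plasma 30K proteins. Its probe sw22736 read 70160, 53970 and 75885 in phoxim RNA of replicates 1, 2 and 3, and 65968, 54017 and 46704 in control RNA. All 3 phoxim values were saturated and so was the control value of replicate 2. The log2 ratios were 0.22, 0.03 and -0.13 (limma adjusted p = 0.98), and with both RNAs saturated on replicate 2 neither their size nor a bound on it can be read. For sw19103 the intensities were 70158, 53976 and 75885 in phoxim and 49608, 54017 and 62856 in control RNA. Its phoxim values were again all saturated, with ratios of 0.63, 0.03 and -0.59 (limma adjusted p = 0.99). Its control value of replicate 2 was saturated as well, so no bound is given here either. On replicate 3 the computed ratios of sw22736 and sw19103 were below 0, although both read higher in phoxim RNA. Their deposited ratios on that array were 1.40 and 1.12, so the sign there is not settled. Probe sw22776 had 70160, 45987 and 75888 in phoxim and 54222, 54017 and 45898 in control RNA, and ratios of 0.50, -0.21 and -0.11. The spot sw22699, with the same gene model, was dim and not tested. It had ratios of 0.09, 0.32 and 0.06.

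**Figure D3:**
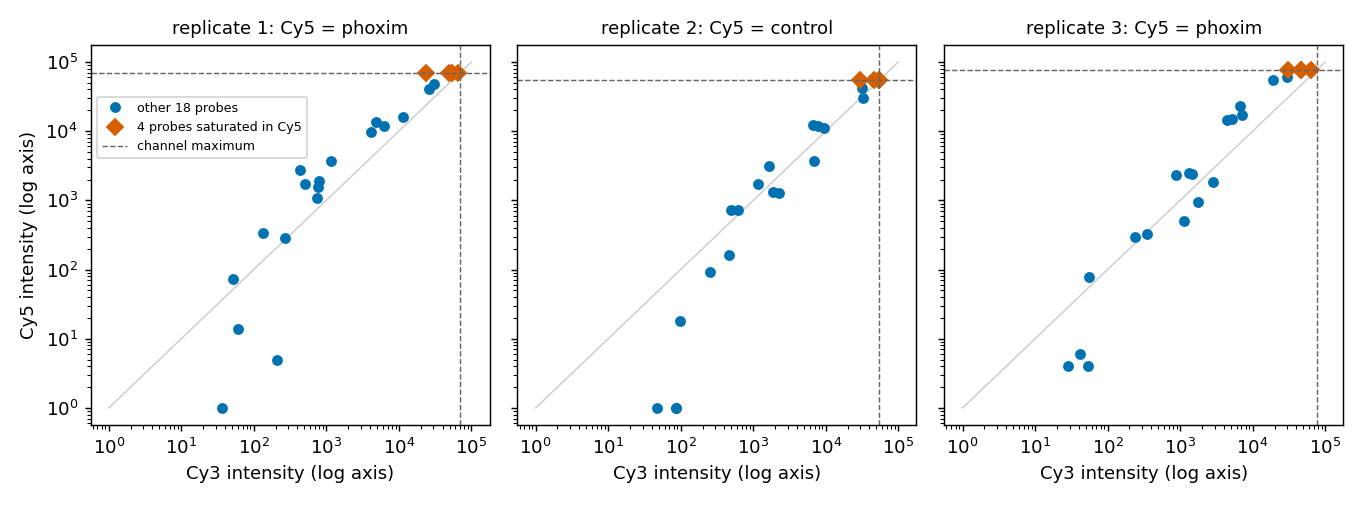
Deposited Cy5 intensity (y axis) against Cy3 intensity (x axis) of the 22 family spots on each array, both axes logarithmic, with values under 1 drawn at 1 and dashed lines at the highest intensity of each channel. The 4 orange spots lie on the Cy5 ceiling on all 3 arrays, also in replicate 2, where Cy5 is control RNA.

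Unsaturated spots of the classical members differed from each other in their pattern. Lp-c6, read by sw06038, stood at 47607, 31294 and 60220 in phoxim and at 30966, 42421 and 29866 in control RNA. Phoxim was the higher on replicates 1 and 3 and control on replicate 2, with ratios of 0.74, -0.47 and 0.23 (0.17 ± 0.61, SD, n = 3; adjusted p = 0.89). The PBMHPC-19 probe sw03882 had 40095, 32423 and 54141 in phoxim and 25827, 30621 and 18774 in control RNA. Phoxim was the higher on every array in the header's order only, with ratios of 0.75, 0.03 and 0.79 (0.53 ± 0.43, adjusted p = 0.55). The second PBMHP-6 probe, sw06737, had 1892, 1883 and 2483 in phoxim and 801, 1300 and 1308 in control RNA. Its ratios were 1.19, 0.03 and 0.66 (0.63 ± 0.58, adjusted p = 0.52). The second probe on the LP3 gene model, sw17422, was not saturated. It had 11929, 9539 and 17205 in phoxim and 6307, 11011 and 7041 in control RNA, and ratios of 1.00, -0.42 and 0.73 (0.44 ± 0.75, adjusted p = 0.67).

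Probe sw09130, described as 21G1, was the family member with the smallest p. Its intensities were 9813, 6974 and 14898 in phoxim and 4115, 3667 and 5241 in control RNA. In the header's order the ratios were 1.32, 0.60 and 0.99 (0.97 ± 0.36, SD, n = 3; limma adjusted p = 0.39). With the dye term the difference was 0.88, and with replicate 2 in the labelled order it was 0.57, with a ratio of -0.60 on that array. Its listed expressed sequence tags also came from other libraries than those of its relatives. Only 1 of its 22 tags carried the library code swc or swd, while 9 carried swj and 4 swp. For the other members with more than 2 tags, sw22736, sw22699, sw22776, sw19103, sw06038 and sw03882, between 87% and 96.3% of the tags came from swc or swd. What these codes stand for is not given in the files.

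A total of 5 of the 17 tested probes were higher in phoxim RNA on all 3 arrays (background 18.2%) and 0 were lower on all 3 (background 17.1%), in the header's order. In the labelled order none of these 5 was higher on all arrays, and 6 other probes were (background 15.4%), namely sw12676, sw17422, sw19281, sw19541, sw22574 and sw06038. By the authors' deposited ratios, 9 of the 17 were above 1 on all 3 arrays (background 24.1%). The 5 probes higher on all arrays in the header's order were sw09130, sw03882, sw06737 and the microvitellogenin probes sw22523 and sw12287. Probe sw22523 had 2708, 2279 and 2406 in phoxim and 430, 1274 and 1477 in control RNA. In the header's order the ratios were 2.47, 0.34 and 0.44 (1.08 ± 1.20, SD, n = 3, limma adjusted p = 0.46), so replicate 1 carried most of the mean. Without replicate 1 the mean was 0.39, and in the labelled order it was 0.86. Probe sw12287 was dim, at 343, 459 and 291 in phoxim and 132, 161 and 235 in control RNA, of which 2 control values were above background. Its ratios were 1.05, 0.59 and 0.45 (0.70 ± 0.31, adjusted p = 0.45), and in the labelled order the mean was 0.30.

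A set of 4 probes with closely numbered gene models gave ratios that changed sign with the dye order. They were singled out after their values had been seen, so they are described without a test. Probes sw22574 (PBMHP-12), sw12676 (19G1), sw19541 (21G1) and sw19281 (21G1) belong to models Bmb013625, Bmb013627, Bmb013628 and Bmb013631, and sw12676 and sw19281 were also assigned to the same genomic scaffold. Probe sw22574 had 13618, 6767 and 14427 in phoxim and 4770, 12364 and 4469 in control RNA, with ratios of 1.59, -1.09 and 1.18. Probe sw19541 had 1568, 1650 and 2362 in phoxim and 767, 3185 and 877 in control RNA, with ratios of 0.98, -1.35 and 1.18. Phoxim was the higher of the RNAs on replicates 1 and 3 for both, and control was the higher on replicate 2. Probe sw12676 had 16044, 7753 and 23277 in phoxim and 11500, 11975 and 6626 in control RNA, with ratios of 0.58, -0.84 and 1.23. For sw19281 the values were 70167, 29729 and 75895 against 24036, 54017 and 31069, with ratios of 1.67, -0.87 and 0.49, although its Cy5 values were saturated. The means of the 4 ranged from 0.27 to 0.56 in the header's order and from 0.89 to 1.29 in the labelled order. With a dye term, the dye took 0.87 to 1.24 and phoxim -0.14 to 0.15. A normalized Cy5 over Cy3 ratio above 0 on all arrays was also found for 2 of the other 13 tested probes, and for 15.4% of all tested probes.

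**Figure D4:**
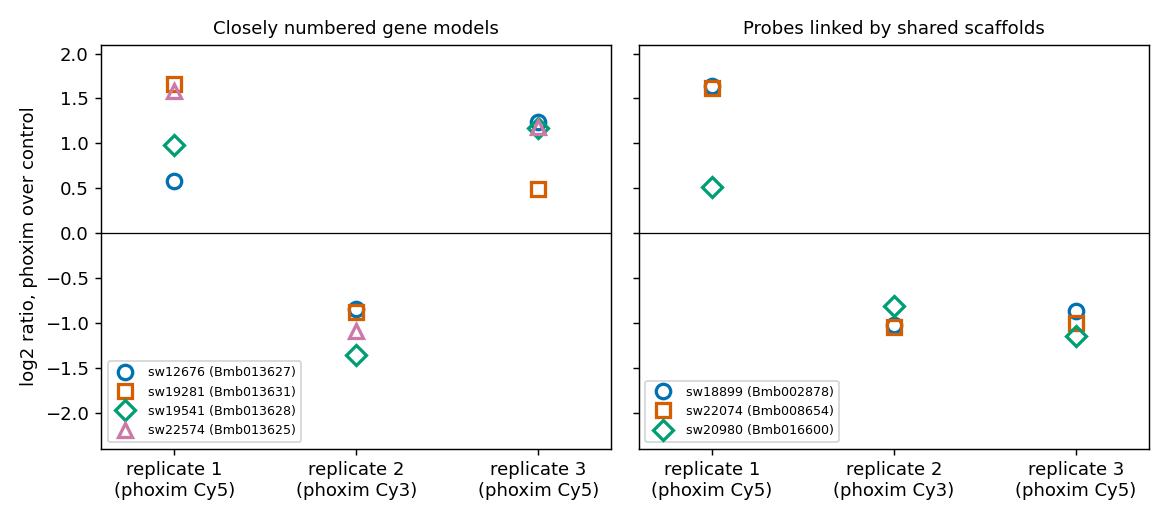
Log2 ratios of phoxim over control (y axis) on each array (x axis, with the dye of the phoxim RNA by file header), for the 4 probes of closely numbered gene models (left) and for 3 probes linked by shared scaffolds (right). The left set is above 0 in replicates 1 and 3 and between -1.35 and -0.84 in replicate 2, and the right set is above 0 only in replicate 1. In the labelled order replicate 2 changes sign in both.

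A second set was higher in phoxim RNA on replicate 1 alone. The microvitellogenin probes sw18899 and sw22074 shared a genomic scaffold and had nearly the same ratios, which differed by at most 0.13 on an array. Probe sw18899 had 3651, 1169 and 1837 in phoxim and 1154, 1721 and 2804 in control RNA, with ratios of 1.64, -1.03 and -0.87 (-0.08 ± 1.50, SD, n = 3; adjusted p = 0.97). Probe sw22074 had 1720, 497 and 956 in phoxim and 510, 717 and 1753 in control RNA, with ratios of 1.62, -1.05 and -1.003 (-0.14 ± 1.53, adjusted p = 0.95). The means of both probes turned positive with median centring (0.26 and 0.19) and with the authors' deposited ratios (0.083 and 0.0045). The single tag listed for sw22074 came from a posterior silk gland library. Probe sw20980, described as 21G1, shared a scaffold with sw18899. It had 1072, 610 and 495 in phoxim and 734, 737 and 1127 in control RNA, with ratios of 0.52, -0.81 and -1.15 (-0.48 ± 0.88, adjusted p = 0.67), the lowest mean of the family. Of the 17 tested probes, 4 had computed ratios above 0 on replicate 1 and below 0 on the other two (background 16.6%). The remaining one, sw22776, was saturated in Cy5 on each array and had deposited ratios above 1 on all 3, so the sign of its ratios is not settled.

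The 5 untested spots were not above background in either RNA on at least 1 array. The 19G1 spot sw20198 and the microvitellogenin spot sw20115 exceeded background in neither RNA on any array. The microvitellogenin spot sw22162 exceeded it in 1 control sample, and sw20957 in 2 phoxim samples and in no control sample. The background cut was higher in Cy3 (188, 307 and 176 on replicates 1, 2 and 3) than in Cy5 (46.9, 101 and 31.8). On replicates 1 and 3 sw20957 read 73 and 77 in phoxim RNA in Cy5, and 51 and 56 in control RNA in Cy3. Its count therefore does not show presence in 1 RNA only. Spot sw22699 exceeded background in 2 samples of each RNA, on replicates 1 and 3, and failed on replicate 2 only. They were not tested at this signal.

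Other proteins that the larval fat body secretes or stores, and proteins that act on or beside the 30K family, did not pass either. In these lists 0 probes rose and 0 fell. The storage proteins, which hold amino acids for metamorphosis, had 5 tested probes with a median of 0.22. A methionine-rich hexamerin (sw13517) was at 2.34 ± 1.65 and a hexamerin 2 probe (sw16543) at 1.61 ± 2.21 (SD, n = 3). Yolk and lipid carriers had 9 tested probes and a median of 0.22, with array medians of 1.10, -0.45 and -0.59. Apolipophorin III (sw09945), which binds to lipoproteins in the hemolymph, was at -1.13 ± 1.39, and an apolipophorin precursor probe (sw17712) at 0.63 ± 0.65. Iron carriers had 5 tested probes and a median of -0.14, with transferrin (sw18597) at -0.78 ± 0.75 and a second transferrin probe (sw21709) at -0.45 ± 0.41. Juvenile hormone binding proteins had 2 tested probes and a median of -0.21. For the 30kP protease A, which degrades 30K proteins in silkworm eggs, 2 of 6 probes were tested, sw22640 at 0.56 ± 0.42 and sw02387 at -0.56 ± 0.65. These 2 were named because they are all that was measured. Glucan and peptidoglycan recognition proteins, which sense microbes, had 3 tested probes and a median of -0.26, with a peptidoglycan recognition protein (sw17404) at -0.77 ± 0.58 and a glucan recognition protein (sw00042) at -0.26 ± 1.11. The smallest adjusted p in these lists was 0.33, for sw13517.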

How the data were processed

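Fat body RNA was compared on 3 two-colour arrays, with 24288 spots each. The authors deposited linear spot intensities of both channels, which include values below 0 and were treated as background-subtracted. Per the file headers, the deposited ratio is treated over control, and the deposited log2 value table is its log2 (largest difference 4.96e-09). The sources used here do not give the method of normalization, the scanner or the image software. The log2 table has medians of 0.01, -0.02 and 0.05, and how it was centred is unknown. Intensities received normexp (offset 50) and loess within arrays with control spots at weight 0 (limma 3.58.1, R 4.3.3). A probe was tested if, on each of the 3 arrays, its Cy5 or Cy3 intensity lay above the 95th percentile of that channel's negative control spots. The mean ratio was set against 0 in a two-sided test by lmFit and eBayes. P-values were adjusted by Benjamini-Hochberg over all 6154 tested probes, and 0.05 was the threshold. As the array pairs the RNAs, it is the block. The script was tested on simulated data. The design had foreseen background columns, which were not used here. Only 3 arrays limit the precision. The members and lists were chosen with earlier results of these data known. Every family spot could be named, and in other lists with at least 3 tested probes the 2 with the smallest p. Probe sequences of the family were not analysed here.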

Additional observations from a re-analysis of the deposited data

How the results depend on the processing

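No 30K probe passed limma's test under any of the 12 alternatives to the fit, nor did any other probe, and between 1 and 4 family probes had an unadjusted p under 0.05. The family median stayed above 0 in all of these except without replicate 1. It was 0.41 without normexp and 0.59 with the deposited ratios (16 of 17 probes above 0, background 57.1%, median of all probes 0.09). It was 0.22 without a dim filter (22 probes), 0.30 with both channels above background (16 probes) and 0.32 with no replicate block. With saturated values missing it was 0.44 (13 probes), as it was for members never saturated, chosen after seeing the data. Median centring gave 0.67, with 16 of 17 probes above 0, but moved the median of all probes to 0.24 and their share above 0 to 68.7%, so that the family lay 0.43 above it. Single probes changed sign as follows. In the labelled dye order sw20980, sw18899 and sw22074 stood at 0.060, 0.60 and 0.56. Median centring gave 0.26 and 0.19 for sw18899 and sw22074, and the deposited ratios 0.083 and 0.0045. With a dye term sw22776 was at -0.0070 and sw19541 at -0.14. Leaving out 1 replicate gave ranges of -0.052 to 0.13 for sw22736, -0.19 to 1.08 for sw19281, -0.12 to 0.49 for sw06038, -0.28 to 0.33 for sw19103, -0.16 to 0.20 for sw22776, -0.19 to 1.08 for sw19541, -0.95 to 0.39 for sw18899, -1.02 to 0.31 for sw22074 and -0.13 to 0.91 for sw12676. The cause was not tested. Saturation limits the ratios of 4 probes and background those of 5.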
